A study of Homo sapiens with 18 samples.

Results

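The NRF2 antioxidant response genes described here are 9 genes, NFE2L2, KEAP1, NQO1, HMOX1, GCLC, GCLM, TXNRD1, SRXN1 and OSGIN1, picked by symbol from the 28277 genes of the count table. All 9 passed the filter on low counts and were tested among 14938 genes. They were measured by RNA-seq in the established ovarian cancer cell line OVCAR3 with a stably integrated dCas9-KRAB, which is a nuclease-dead Cas9 joined to the KRAB repressor (OVCAR3-KRAB). The study asked how knockdown (KD) of the lncRNA XIST changes these cells, and whether they respond differently to low oxygen. All groups, controls included, carried dCas9-KRAB and grew in DMEM with fetal bovine serum. The sgCtl cells had a guide RNA against the Gal4 promoter, and the sgXIST7 and sgXIST9 cells had guides against separate stretches of the XIST promoter. Cells of each guide were kept in normoxia or for 24 h in a chamber with 1% oxygen (hypoxia), which gave 6 groups of 3 replicates and 18 libraries. The cells were clonal, and how many clones stood behind each guide is not given in the sources used here, so a difference between guides cannot be told apart from a difference between clones. The cells of each guide are called a line. The labels do not say whether replicates were separate cultures, so p-values measure only the spread between these libraries.

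NRF2, encoded by NFE2L2, is the transcription factor of the cell's response to oxidants and electrophiles. In unstressed cells KEAP1, a substrate adaptor of the CUL3 ubiquitin ligase, binds NRF2 and directs it to degradation. When cysteines of KEAP1 react with oxidants, NRF2 builds up, pairs with small MAF proteins and binds antioxidant response elements near genes for quinone reduction (NQO1), heme breakdown (HMOX1), glutathione synthesis (GCLC and GCLM), thioredoxin reduction (TXNRD1) and repair of peroxiredoxins (SRXN1). OSGIN1 encodes an oxidative stress induced growth inhibitor. Control of NRF2 is largely at the level of the protein, which these data do not measure, and several of these genes also answer to other factors.

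Total counts ranged from 11794375 to 24906936 per library, and each member had at least 199 counts in every library. XIST had at most 5 counts in each sgXIST7 library, against at least 1589 in each sgCtl library, and in sgXIST9 its log2 fold change against sgCtl was −3.41 in normoxia and −2.88 in hypoxia. Of 10 genes known to answer to hypoxia, 8 were up-regulated in hypoxia in sgCtl and 9 in each KD line. The cell line label was checked with 8 markers of ovarian carcinoma. EPCAM was high, with a mean of 159.9 to 243.1 normalized counts (CPM, scaled by the TMM-normalized library size) over the groups, and KRT18 was at 140.1 to 219.0. Group means of KRT8 were 4.41 to 34.7 CPM and those of PAX8 1.51 to 4.55. WT1 had 14 counts at most in any library and MUC16 had 4 at most, while KRT7 and CDH1 had 3 or fewer in every library. The 8 markers thus went with the label only in part. The summed level of 8 markers of leukocytes, endothelial cells and fibroblasts was 7.85 CPM at most. In such bulk RNA, fewer cells of a kind and less RNA per cell cannot be told apart. The 3 libraries of replicate 3 in hypoxia stood apart from the others in the same way, their deviations from the group means correlating at 0.42 to 0.59 with each other across genes and negatively with those of the other replicate numbers, so calls of members that depend on them are given with and without them.

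To show what the members share in sequence, RefSeq promoter windows on GRCh38.p14, from 250 bases before to 50 after a transcription start, were searched on both strands. The motifs were the antioxidant response element core TGACNNNGC, the AP-1 site TGACTCA and TACGTG, which is only a subset of the hypoxia response element core NCGTG. The table held 11 windows for 8 members and none for HMOX1. TGACNNNGC was found in 4 of these 11 windows, those of GCLM, of the downstream start of KEAP1 and of both starts of TXNRD1, and in 13.3% of all 35116 windows. TGACTCA, which counts for both motifs where GC follows it, was found in the OSGIN1 window and in 4.95% of all windows. TACGTG was in none of the 11 and in 3.24% of all. Other forms of the hypoxia response element core were not searched for, so its absence from the windows was not shown. A match describes these letters only, and no match says nothing of sites outside the windows. The stretches around the matches are shown because members that hold the same motif, KEAP1, GCLM and TXNRD1, differed in how they responded to hypoxia. Each reads 5′ to 3′ on the strand of the match, with the motif in capitals.
GCLM, chr1:93909446-93909474, plus strand, 34 bases before the start: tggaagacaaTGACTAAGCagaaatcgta
KEAP1, chr19:10502784-10502812, plus strand, 31 bases before the downstream start: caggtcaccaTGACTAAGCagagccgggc
TXNRD1, chr12:104286920-104286948, minus strand, 102 bases before the downstream start: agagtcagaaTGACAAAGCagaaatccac
TXNRD1, chr12:104215670-104215698, plus strand, 99 bases before the upstream start: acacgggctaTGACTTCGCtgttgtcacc
OSGIN1, chr16:83953133-83953159, plus strand, 97 bases before the start: gggcccctgcTGACTCAcgcttatgaa
GCLM and the downstream start of KEAP1 had the same 9 letters. The KEAP1 window held a second match with other central letters, 54 bases before the start, and the upstream start of TXNRD1 one 8 bases before it. For wider context, the 250 bases before the downstream start of TXNRD1 (chr12:104286782-104287031, plus strand, with the motif's reverse complement in capitals) and before OSGIN1 (chr16:83952990-83953239, plus strand) hold no exon base of the deposited annotation and read as follows.
TXNRD1: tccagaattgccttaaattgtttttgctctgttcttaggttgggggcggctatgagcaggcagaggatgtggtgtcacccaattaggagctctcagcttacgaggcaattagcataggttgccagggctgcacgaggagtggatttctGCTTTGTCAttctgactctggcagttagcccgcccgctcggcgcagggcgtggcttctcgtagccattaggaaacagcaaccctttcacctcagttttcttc
OSGIN1: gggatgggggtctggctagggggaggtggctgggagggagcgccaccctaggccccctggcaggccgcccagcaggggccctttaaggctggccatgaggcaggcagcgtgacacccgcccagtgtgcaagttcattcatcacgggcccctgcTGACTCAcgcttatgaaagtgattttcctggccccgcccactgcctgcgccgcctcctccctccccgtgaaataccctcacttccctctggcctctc

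Levels of different genes were compared per length, as RPKM (CPM per kilobase of exon). NQO1 had the highest level of the 9 in each group. In sgCtl in normoxia it was at 238.5 RPKM ± 17.7 (SD, n = 3), followed by TXNRD1 at 77.4 ± 5.99, SRXN1 at 46.4 ± 4.41 and KEAP1 at 33.6 ± 2.65. NFE2L2 at 27.3 ± 1.99 and HMOX1 at 26.5 ± 3.79 were next and did not differ beyond their spread. GCLM at 14.5 ± 1.18, GCLC at 10.0 ± 0.924 and OSGIN1 at 7.87 ± 0.258 were lowest. In sgCtl in hypoxia HMOX1, at 213.9 RPKM ± 69.1, was level with NQO1 at 214.5 ± 41.0 within the spread, and SRXN1 at 115.3 ± 33.5 came next. TXNRD1 moved from the second place in each normoxia group to the fourth place in sgXIST9 and the sixth in the other two lines in hypoxia, at 41.2 ± 1.53, 35.4 ± 1.90 and 29.8 ± 1.37 RPKM in sgXIST9, sgCtl and sgXIST7.

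**Figure D1:**
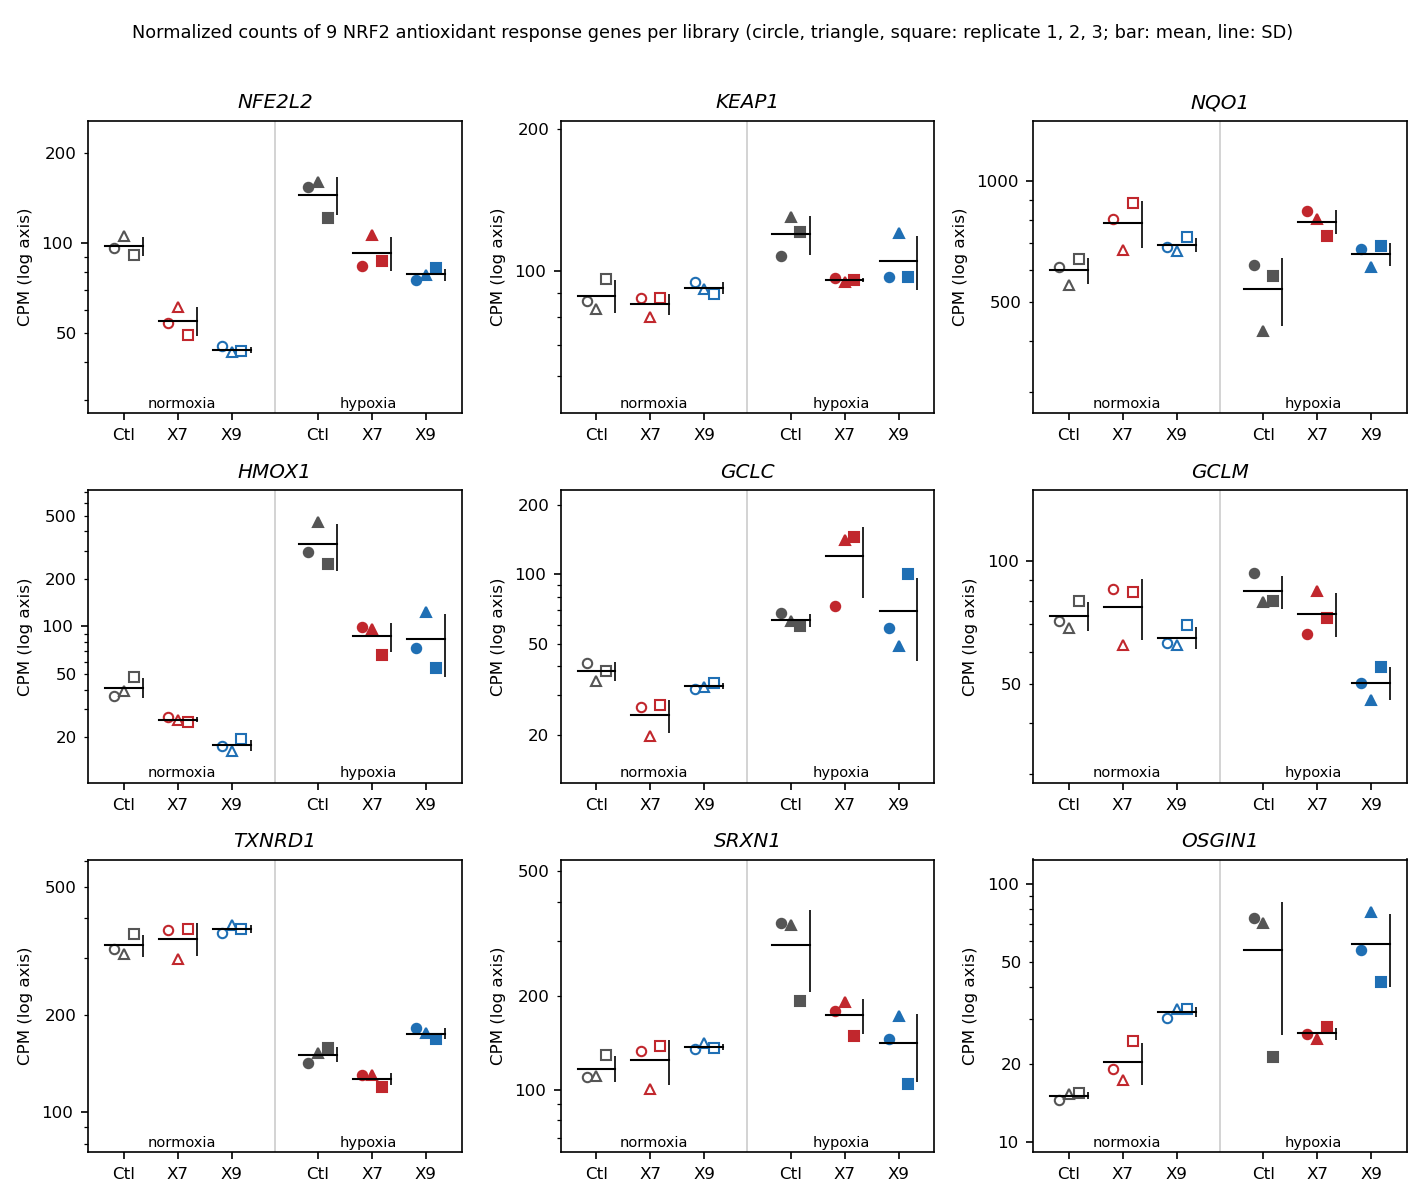
Normalized counts (CPM, log axis) of the 9 members in the 18 libraries, with sgCtl in gray (Ctl), sgXIST7 in red (X7) and sgXIST9 in blue (X9), open symbols for normoxia and filled for hypoxia; circles, triangles and squares are replicates 1, 2 and 3, horizontal bars are group means and vertical lines are ± SD. The NFE2L2 libraries of both KD lines lie below those of sgCtl in normoxia and again in hypoxia, HMOX1 is highest in sgCtl in hypoxia, and the square of OSGIN1 in sgCtl in hypoxia lies at 21.4 CPM, far below the other two at 74.3 and 70.8.

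Hypoxia moved the members in different directions. In sgCtl, HMOX1, OSGIN1, SRXN1, NFE2L2 and KEAP1 rose and TXNRD1 fell, at an adjusted p under 0.01 (edgeR's quasi-likelihood test, Benjamini-Hochberg over all genes tested), the threshold used throughout. That is 6 of 9 members, beside 37.6% of all genes tested, of which 18.8% were higher and 18.8% lower, and 4 of them, all but NFE2L2 and KEAP1, also passed the study's size limit of an absolute log2 fold change above 1, beside 19.7% of all genes. In sgXIST7, NFE2L2, HMOX1 and GCLC rose and TXNRD1 fell, 4 of 9 beside 46.7% of all genes (23.5% higher and 23.2% lower). The same 4 genes changed in the same directions in sgXIST9, where 42.1% of all genes passed (23.1% higher and 19% lower). In each KD line 3 of the 4 passed the size limit, all but NFE2L2, beside 27.3% and 23.3% of all genes. Without replicate 3 in the hypoxia groups the same genes passed, and GCLC in sgCtl, SRXN1 in sgXIST7 and OSGIN1 in sgXIST9 passed too, which made 7, 5 and 5 members. The median log2 fold change of the members was 0.57, 0.36 and 0.19 in sgCtl, sgXIST7 and sgXIST9, and that of all genes tested was 0.02, 0.01 and 0.09. With 3 libraries against 3, a two-sided exact permutation test of a single gene cannot give a p below 0.1, and it gave 0.1 for each member that passed in these comparisons. Libraries of hypoxia and normoxia did not overlap for 7 members in each line, beside 54.9%, 63.9% and 65.9% of all genes.

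**Figure D2:**
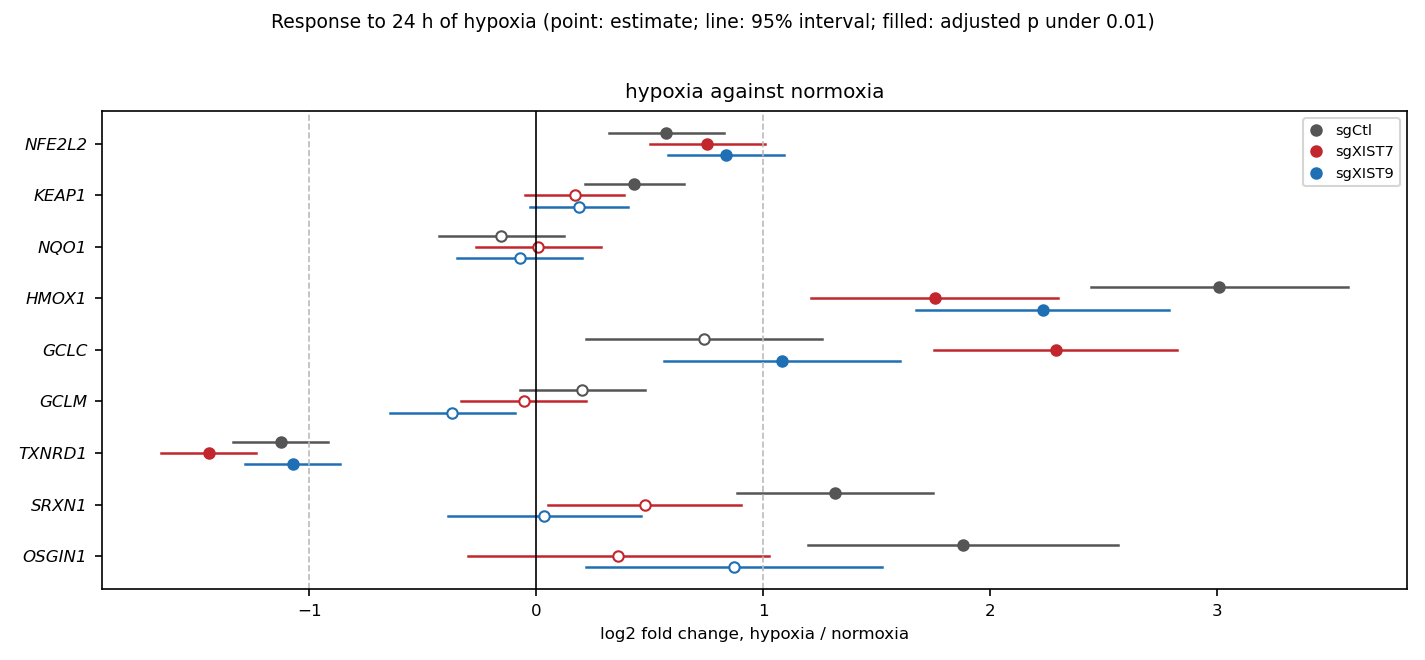
Log2 fold change of hypoxia against normoxia (x axis) of the 9 members in sgCtl (gray), sgXIST7 (red) and sgXIST9 (blue); points are edgeR estimates, lines their 95% intervals, filled points have an adjusted p under 0.01 and dashed lines mark the size limit. HMOX1 lies to the right and TXNRD1 to the left of 0 in sgCtl, sgXIST7 and sgXIST9, while SRXN1 and OSGIN1 are filled in sgCtl alone. Without replicate 3 in the hypoxia groups SRXN1 also passed in sgXIST7 and OSGIN1 in sgXIST9.

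XIST KD lines were compared with sgCtl at the same oxygen level, and the comparisons with sgXIST7 and sgXIST9 share the sgCtl libraries. In normoxia few members differed. NFE2L2 alone was lower in sgXIST7, 1 of 9 members beside 13.5% of all genes (7.39% higher and 6.1% lower), and NFE2L2 and HMOX1 were lower in sgXIST9, 2 of 9 beside 13.1% (6.51% higher and 6.6% lower). In hypoxia, NFE2L2, HMOX1 and SRXN1 were lower and GCLC and NQO1 higher in sgXIST7, 5 of 9 beside 27.6% (13.9% higher and 13.7% lower). In sgXIST9 the genes NFE2L2, HMOX1, SRXN1 and GCLM were lower and none was higher, 4 of 9 beside 17.9% (9.65% higher and 8.24% lower). With only the 6 libraries compared in the fit, HMOX1 alone passed in sgXIST7 and NFE2L2 alone in sgXIST9. The size limit was passed by 0 and 2 members in normoxia, beside 7.76% and 7.7% of all genes, and by 1 and 2 in hypoxia, beside 14% and 9.53%. Between the KD lines no member differed in normoxia by edgeR, with 1 at an unadjusted p under 0.05 and 0 by DESeq2, beside 4.97% of all genes, and GCLM and TXNRD1 differed in hypoxia, 2 of 9 beside 8.43%. GCLC, without sgXIST7 replicate 1 or sgXIST9 replicate 3, and OSGIN1, without sgXIST9 replicate 3, passed there too.

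**Figure D3:**
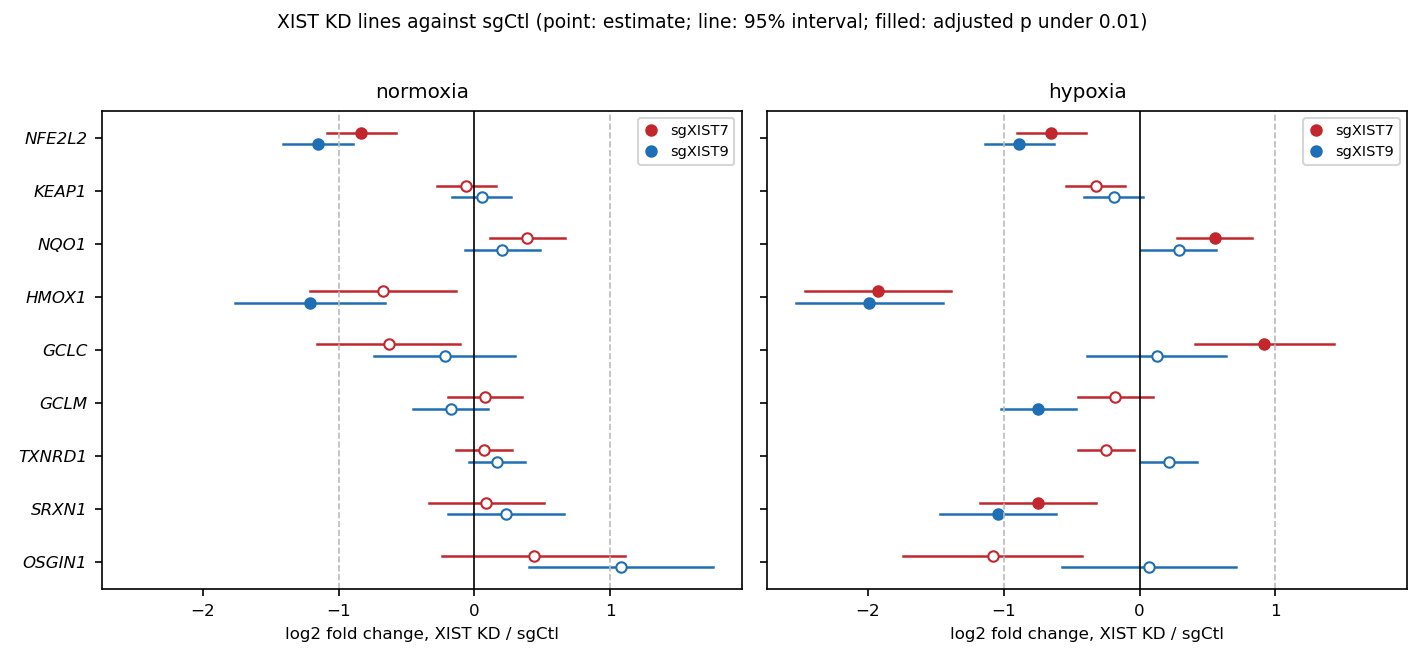
Log2 fold change of sgXIST7 (red) and sgXIST9 (blue) against sgCtl (x axis) in normoxia (left) and hypoxia (right) for the 9 members; points are edgeR estimates, lines their 95% intervals, filled points have an adjusted p under 0.01 and dashed lines mark the size limit. NFE2L2 is filled and left of 0 in all 4 comparisons, and HMOX1 in 3 of 4, with the largest differences in hypoxia.

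NFE2L2 (hg38 chr2:177230303-177265131, minus strand), the gene of NRF2 itself, was lower in both KD lines and higher in hypoxia in the 3 lines. In normoxia it was at 96.6, 105.6 and 91.4 CPM in the sgCtl libraries (replicates 1, 2 and 3, as in all lists of 3 values), at 54.3, 61.5 and 49.3 in sgXIST7 and at 45.3, 43.2 and 43.7 in sgXIST9. In hypoxia it was at 153.9, 160.8 and 121.6 CPM in sgCtl, at 84.3, 106.4 and 87.4 in sgXIST7 and at 75.4, 78.2 and 82.5 in sgXIST9. At each oxygen level, each KD library was below each sgCtl library. Relative to sgCtl, the log2 fold change in normoxia was −0.83 in sgXIST7 (SE 0.12, adjusted p = 6.9e-05, edgeR) and −1.15 in sgXIST9 (SE 0.12, adjusted p = 2.1e-06, edgeR). In hypoxia it was −0.65 (SE 0.12, adjusted p = 4.3e-04, edgeR) and −0.89 (SE 0.12, adjusted p = 3.0e-05, edgeR). The 2 KD lines did not differ from each other at the threshold in normoxia (log2 difference of sgXIST7 over sgXIST9 0.32, 95% interval 0.06 to 0.57, adjusted p = 0.13, edgeR).

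NFE2L2 rose in hypoxia within each line. The log2 fold changes were 0.57 in sgCtl (adjusted p = 7.9e-04, edgeR), 0.75 in sgXIST7 (adjusted p = 4.6e-05) and 0.83 in sgXIST9 (adjusted p = 2.1e-05), each with an SE of 0.12. The response of sgXIST7 exceeded that of sgCtl by 0.18 on the log2 scale, with a 95% interval from −0.18 to 0.54, and that of sgXIST9 by 0.26, with an interval from −0.10 to 0.62. A difference between lines in this response was therefore not shown, and differences up to 0.54 and 0.62 lie within the intervals. In hypoxia the sgXIST7 and sgXIST9 means, 92.7 and 78.7 CPM, lay below the sgCtl mean in normoxia, 97.9 CPM. This was not tested, and the sgXIST7 libraries in hypoxia, 84.3 to 106.4 CPM, overlapped those of sgCtl in normoxia, 91.4 to 105.6 CPM.

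KEAP1 (chr19:10486125-10503356, minus strand), the adaptor that holds NRF2 down, moved little. It was at 86.6, 83.1 and 96.6 CPM in sgCtl, 87.9, 80.1 and 87.7 in sgXIST7 and 95.03, 91.6 and 89.6 in sgXIST9 in normoxia. Levels in hypoxia were 107.9, 130.4 and 121.1 CPM in sgCtl, 96.8, 94.8 and 95.9 in sgXIST7 and 97.2, 120.7 and 97.1 in sgXIST9. Its range of group means was the narrowest of the 9 genes. It rose in hypoxia in sgCtl (log2 fold change 0.43, SE 0.10, adjusted p = 0.0022, edgeR), a call lost when either of sgCtl normoxia replicates 1 and 2 or sgCtl hypoxia replicate 2 was left out, with an adjusted p of up to 0.015, or with only the groups compared in the fit (adjusted p = 0.016). The values of 0.17 and 0.19 in sgXIST7 and sgXIST9 did not pass (adjusted p = 0.17 and 0.13, edgeR). Their difference from sgCtl, −0.26 and −0.24, had 95% intervals of −0.57 to 0.04 and −0.55 to 0.06. Relative to sgCtl in hypoxia, KEAP1 had a log2 fold change of −0.32 in sgXIST7 (SE 0.10, adjusted p = 0.019, edgeR), which missed the threshold. DESeq2 called this difference (adjusted p = 0.0052), and the −0.19 in sgXIST9 did not pass (adjusted p = 0.18, edgeR). Per length, NFE2L2 stood to KEAP1 at 0.818 ± 0.119 (SD, n = 3) in sgCtl, 0.478 ± 0.0785 in sgXIST7 and 0.353 ± 0.00594 in sgXIST9 in normoxia, and at 0.899 ± 0.156, 0.713 ± 0.0995 and 0.558 ± 0.0751 in hypoxia.

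HMOX1 (chr22:35381096-35394207, plus strand) encodes heme oxygenase 1, which opens the heme ring to biliverdin, carbon monoxide and iron, and it changed most of the 9. In normoxia it was at 36.5, 39.4 and 47.8 CPM in sgCtl, 26.9, 25.7 and 25.01 in sgXIST7 and 17.5, 16.5 and 19.4 in sgXIST9. The hypoxia libraries were at 296.9, 453.1 and 247.2 CPM in sgCtl, 98.8, 96.6 and 66.5 in sgXIST7 and 73.5, 123.0 and 54.4 in sgXIST9. Hypoxia and normoxia libraries did not overlap in any line, and the lowest sgCtl library in hypoxia was well above the highest KD library.
The log2 fold change of hypoxia against normoxia was 3.01 in sgCtl (SE 0.27, adjusted p = 1.5e-07, edgeR), or 8.06-fold, 1.76 in sgXIST7 (SE 0.26, adjusted p = 1.9e-05), or 3.38-fold, and 2.23 in sgXIST9 (SE 0.26, adjusted p = 2.3e-06), or 4.70-fold. Against sgCtl in hypoxia HMOX1 was lower by 3.80-fold in sgXIST7 (log2 fold change −1.93, SE 0.26, adjusted p = 1.9e-05, edgeR) and by 3.97-fold in sgXIST9 (−1.99, SE 0.26, adjusted p = 1.6e-05). In normoxia it was lower in sgXIST9 (−1.21, SE 0.26, adjusted p = 0.0025, edgeR), a call lost without sgCtl replicate 3 or sgXIST9 replicate 1 or 2 (adjusted p up to 0.015), and −0.67 in sgXIST7 did not pass (SE 0.26, adjusted p = 0.072, edgeR).

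SRXN1 (chr20:646624-653200, minus strand) encodes sulfiredoxin, which reactivates peroxiredoxins that have been overoxidized. It was at similar levels in the normoxia libraries, with 109.8, 111.0 and 129.6 CPM in sgCtl, 133.4, 100.9 and 138.1 in sgXIST7 and 135.1, 140.7 and 136.5 in sgXIST9. After hypoxia the values were 340.8, 337.6 and 192.9 CPM in sgCtl, 178.3, 191.5 and 148.8 in sgXIST7 and 145.9, 172.5 and 104.0 in sgXIST9. Replicate 3 was the lowest in each hypoxia group. SRXN1 rose in hypoxia in sgCtl (log2 fold change 1.32, SE 0.20, adjusted p = 5.2e-05, edgeR), or 1.54 without replicate 3 of sgCtl in hypoxia. The values in sgXIST7, 0.48 (SE 0.20, adjusted p = 0.050, edgeR), and sgXIST9, 0.04 (95% interval −0.39 to 0.46, adjusted p = 0.90, edgeR), did not pass. Without replicate 3 in the hypoxia groups SRXN1 passed in sgXIST7 (0.59, SE 0.12, adjusted p = 4.7e-04, edgeR), while the 0.22 in sgXIST9 did not (adjusted p = 0.13). In hypoxia SRXN1 was lower than in sgCtl, with a log2 fold change of −0.75 in sgXIST7 (SE 0.20, adjusted p = 0.0070, edgeR) and −1.04 in sgXIST9 (SE 0.20, adjusted p = 8.6e-04, edgeR). The call in sgXIST7 was lost when any library but replicate 3 of sgCtl was left out, with an adjusted p of up to 0.040, and that in sgXIST9 held without each library.

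OSGIN1 (chr16:83953240-83966332, plus strand), the gene whose promoter window held the AP-1 letters, was the lowest member in sgCtl in normoxia. It was at 14.6, 15.4 and 15.4 CPM in sgCtl, 19.2, 17.4 and 24.7 in sgXIST7 and 30.4, 32.9 and 32.7 in sgXIST9 in normoxia. In hypoxia it was at 74.3, 70.8 and 21.4 CPM in sgCtl, 26.3, 25.01 and 27.8 in sgXIST7 and 55.6, 78.0 and 41.7 in sgXIST9. Replicate 3 of sgCtl in hypoxia was thus below every library of both KD lines in hypoxia, and the other two sgCtl libraries were above all 3 of sgXIST7. OSGIN1 rose in hypoxia in sgCtl (log2 fold change 1.88, SE 0.32, adjusted p = 1.4e-04, edgeR), or 2.26 without that library (SE 0.19, adjusted p = 7.3e-08). The values of 0.36 in sgXIST7 (SE 0.31, adjusted p = 0.34, edgeR) and 0.87 in sgXIST9 (SE 0.31, adjusted p = 0.024, edgeR) did not pass. Without replicate 3 in the hypoxia groups the rise in sgXIST9 passed (1.07, SE 0.14, adjusted p = 4.9e-06, edgeR), as it did with only the groups compared in the fit (0.85, adjusted p = 0.0091), and the 0.34 in sgXIST7 did not (adjusted p = 0.054). In hypoxia, sgXIST7 against sgCtl gave −1.08 (SE 0.31, adjusted p = 0.011, edgeR), which missed the threshold, and −1.46 without replicate 3 of sgCtl (SE 0.19, adjusted p = 9.6e-06), and DESeq2 and upper-quartile scaling also called it (adjusted p = 0.0028 and 0.0096). In normoxia OSGIN1 was 1.08 higher in sgXIST9 than in sgCtl, with no overlap of libraries, but the adjusted p was 0.022 (SE 0.32, edgeR), against 0.0044 by DESeq2 and 4.0e-07 with only the groups compared.

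GCLC (chr6:53497341-53545101, minus strand) and GCLM (chr1:93885200-93909598, minus strand) encode the catalytic and modifier subunits of glutamate-cysteine ligase, the rate-limiting enzyme of glutathione synthesis, and they did not move together. GCLC was at 41.3, 34.3 and 38.1 CPM in sgCtl, 26.5, 19.8 and 27.1 in sgXIST7 and 31.9, 32.2 and 33.7 in sgXIST9 in normoxia. The hypoxia libraries were at 67.6, 62.8 and 59.4 CPM in sgCtl, 72.9, 141.0 and 145.5 in sgXIST7 and 58.8, 48.7 and 100.03 in sgXIST9. Its hypoxia libraries were above its normoxia libraries in each line, with a wide spread in the KD lines. GCLC rose in hypoxia in sgXIST7 (log2 fold change 2.29, SE 0.25, adjusted p = 9.0e-07, edgeR) and in sgXIST9 (1.08, SE 0.25, adjusted p = 0.0013), and the 0.74 in sgCtl did not pass (SE 0.25, adjusted p = 0.019, edgeR). It passed in sgCtl by DESeq2 (0.77, adjusted p = 0.0080), with only the groups compared (0.76, adjusted p = 0.0020) and without replicate 3 in the hypoxia groups (0.78, adjusted p = 0.0054). The rise in sgXIST9 was 0.73 without replicate 3 in the hypoxia groups (adjusted p = 0.0083, edgeR). In hypoxia it was higher in sgXIST7 than in sgCtl (0.92, SE 0.24, adjusted p = 0.0064, edgeR), a call lost without any of 5 of the 6 libraries compared, with an adjusted p of up to 0.036. It was lost too without replicate 3 in the hypoxia groups, and only leaving out sgXIST7 replicate 1 kept it.

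GCLM, whose promoter window held the antioxidant response element letters, stayed between 62.3 and 85.6 CPM in the normoxia libraries. After hypoxia the values were 93.4, 79.5 and 80.0 CPM in sgCtl, 66.2, 84.5 and 72.6 in sgXIST7 and 50.2, 45.7 and 55.0 in sgXIST9, so that the sgXIST9 libraries were the lowest of all 18. Its response to hypoxia did not pass in any line by edgeR, with log2 fold changes of 0.20 in sgCtl (95% interval −0.07 to 0.48), −0.06 in sgXIST7 (−0.33 to 0.22) and −0.37 in sgXIST9 (−0.65 to −0.09, adjusted p = 0.024, edgeR), where DESeq2 called it (−0.39, adjusted p = 0.0098). In hypoxia GCLM was lower in sgXIST9 than in sgCtl (−0.75, SE 0.13, adjusted p = 3.7e-04, edgeR) and higher in sgXIST7 than in sgXIST9 (0.57, SE 0.13, adjusted p = 0.0066, edgeR), the latter a call lost without sgXIST7 replicate 2 or 3 or sgXIST9 replicate 1 or 2 (adjusted p up to 0.045). Per length, GCLC stood to GCLM at 0.693 ± 0.0726 (SD, n = 3) in sgCtl, 0.422 ± 0.00887 in sgXIST7 and 0.670 ± 0.0223 in sgXIST9 in normoxia. In hypoxia the ratio was 1.00 ± 0.0459, 2.12 ± 0.610 and 1.80 ± 0.544. Each hypoxia library was above each normoxia library, from 0.966 to 2.67 against 0.412 to 0.775.

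TXNRD1 (chr12:104215779-104350307, plus strand) encodes cytosolic thioredoxin reductase, which returns thioredoxin to its reduced form with NADPH. It was the member that fell, with the antioxidant response element letters before both of its starts. In normoxia it was at 321.4, 309.1 and 358.1 CPM in sgCtl, 368.6, 297.8 and 369.9 in sgXIST7 and 359.1, 379.6 and 369.5 in sgXIST9. Levels in hypoxia were 142.3, 152.3 and 158.3 CPM in sgCtl, 130.1, 130.6 and 120.3 in sgXIST7 and 182.0, 175.6 and 168.9 in sgXIST9. The hypoxia libraries spanned 120.3 to 182.0 CPM and the normoxia libraries 297.8 to 379.6, without overlap. The log2 fold changes were −1.13 in sgCtl (SE 0.10, adjusted p = 1.3e-07, edgeR), −1.44 in sgXIST7 (SE 0.10, adjusted p = 4.5e-09) and −1.07 in sgXIST9 (SE 0.10, adjusted p = 1.4e-07), and the call held under each alternative and without each library. In replicate 3 of hypoxia, which stood apart for HMOX1, SRXN1 and OSGIN1, TXNRD1 was at 158.3 CPM in sgCtl beside a mean of 147.3 of the other two libraries. In hypoxia the sgXIST7 line was below the sgXIST9 line (−0.47, SE 0.10, adjusted p = 0.0035, edgeR), a call lost without sgXIST7 replicate 2 or 3 or sgXIST9 replicate 1 or 2 (adjusted p up to 0.022). Against sgCtl no difference passed, with −0.25 and 0.22 in hypoxia and 0.07 and 0.16 in normoxia for sgXIST7 and sgXIST9.

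NQO1 (chr16:69709401-69726560, minus strand) encodes a quinone reductase that is widely read as a measure of NRF2 activity. Its level did not change detectably with hypoxia. In normoxia it was at 612.5, 552.2 and 639.1 CPM in sgCtl, 804.4, 675.6 and 884.3 in sgXIST7 and 684.7, 671.4 and 725.1 in sgXIST9. In hypoxia it was at 618.7, 423.6 and 579.8 CPM in sgCtl, 841.5, 807.2 and 731.6 in sgXIST7 and 679.0, 610.5 and 690.6 in sgXIST9. Hypoxia and normoxia libraries overlapped in each line. The log2 fold change of hypoxia was −0.15 in sgCtl (95% interval −0.43 to 0.12), 0.01 in sgXIST7 (−0.27 to 0.29) and −0.07 in sgXIST9 (−0.35 to 0.20), so changes beyond these bounds lie outside the intervals. NQO1 was higher in sgXIST7 than in sgCtl in hypoxia (0.55, SE 0.13, adjusted p = 0.0030, edgeR), a call lost without sgCtl replicate 2, which was the lowest library, or sgXIST7 replicate 1 or 2 (adjusted p up to 0.017). In normoxia the value was 0.39 (SE 0.13, adjusted p = 0.041, edgeR), and in sgXIST9 it was 0.21 in normoxia and 0.29 in hypoxia (adjusted p = 0.30 and 0.11, edgeR).

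Whether the lines responded differently to hypoxia was tested with interaction contrasts, the difference of their log2 fold changes. With all libraries, none of the 9 members passed in any of the 3 contrasts by edgeR, beside 2.17% of all genes for sgXIST7 minus sgCtl, 1.26% for sgXIST9 minus sgCtl and 0.174% for sgXIST7 minus sgXIST9. At an unadjusted p under 0.05 the members numbered 5, 4 and 2, and DESeq2 called 2, 1 and 0. For sgXIST7 minus sgCtl, GCLC had a difference of 1.55 (SE 0.35, adjusted p = 0.013, edgeR), OSGIN1 of −1.52 (SE 0.45, adjusted p = 0.043), HMOX1 of −1.26 (SE 0.36, adjusted p = 0.038) and SRXN1 of −0.84 (SE 0.28, adjusted p = 0.072). That of TXNRD1 was −0.32 (SE 0.14, adjusted p = 0.15, edgeR). For sgXIST9 minus sgCtl, SRXN1 had a difference of −1.28 (SE 0.29, adjusted p = 0.016, edgeR) and GCLM of −0.57 (SE 0.19, adjusted p = 0.080). Those of OSGIN1 and HMOX1 were −1.01 (SE 0.44, adjusted p = 0.19, edgeR) and −0.78 (SE 0.36, adjusted p = 0.22).

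These results turned on replicate 3 of sgCtl in hypoxia. Without that library 4 genes passed in sgXIST7 minus sgCtl. These were OSGIN1 with −1.90 (SE 0.26, adjusted p = 1.5e-04, edgeR), SRXN1 with −1.06 (SE 0.23, adjusted p = 0.0039), HMOX1 with −1.42 (SE 0.36, adjusted p = 0.0091) and GCLC with 1.51 (SE 0.38, adjusted p = 0.0094). In sgXIST9 minus sgCtl, SRXN1 with −1.50 (SE 0.23, adjusted p = 5.3e-04, edgeR) and OSGIN1 with −1.39 (SE 0.25, adjusted p = 0.0017) passed. Over all genes, calls past the size limit in these contrasts went from 227 to 1198 for sgXIST7 and from 151 to 725 for sgXIST9. GCLC also passed in sgXIST7 minus sgCtl without sgXIST7 replicate 1 in hypoxia, and in sgXIST7 minus sgXIST9 without sgXIST9 replicate 3. In replicate 3 of sgCtl in hypoxia HMOX1, SRXN1 and OSGIN1 were at 247.2, 192.9 and 21.4 CPM, beside means of 375.0, 339.2 and 72.5 in the other two. NFE2L2 was at 121.6 CPM beside 157.4, while NQO1, KEAP1, GCLC, GCLM and TXNRD1 differed from them by at most 0.15 on the log2 scale. What set this library apart was not tested.

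**Figure D4:**
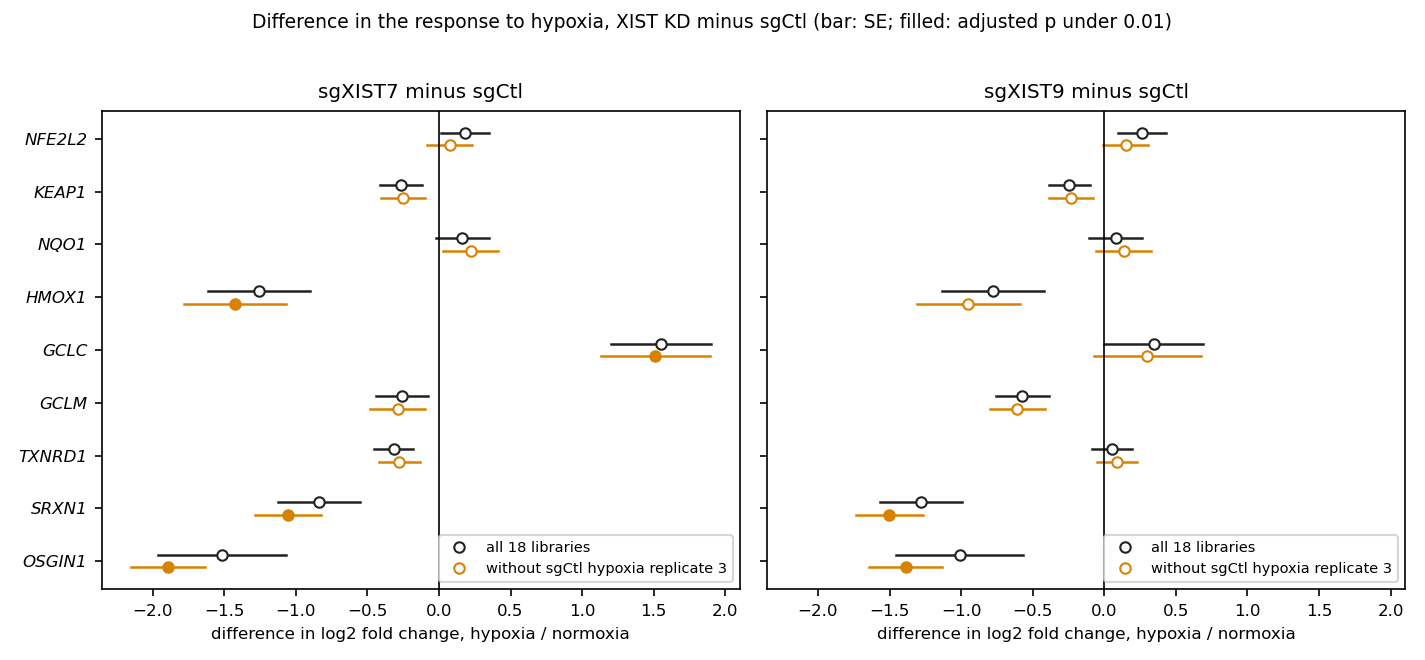
Difference in the log2 fold change of hypoxia against normoxia (x axis) between sgXIST7 and sgCtl (left) and between sgXIST9 and sgCtl (right) for the 9 members, with all 18 libraries (black) and without replicate 3 of sgCtl in hypoxia (orange); points are edgeR estimates, lines ± SE and filled points have an adjusted p under 0.01. No black point is filled, and without the library 4 points on the left and 2 on the right are filled while their estimates stay on the same side of 0.

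The other genes of the pathway were read from 6 lists of 70 genes, of which 62 passed the filter. In hypoxia against normoxia, 31 of 62 passed in sgCtl, 16 higher and 15 lower, 32 in sgXIST7, 17 and 15, and 28 in sgXIST9, 17 and 11, with medians of −0.02, 0.07 and 0.16. Their share of 50%, 51.6% and 45.2% lies beside the 37.6%, 46.7% and 42.1% of all genes given above. Among the 13 regulators 5 rose and 2 fell in each line. MAFF, a small MAF protein, a class of partners of NRF2, rose by 2.39, 2.71 and 1.88 on the log2 scale in sgCtl, sgXIST7 and sgXIST9, and NFE2L3, a relative of NFE2L2, fell with −2.17, −1.53 and −1.25. BACH2, a repressor at antioxidant response elements, was higher in sgXIST9 than in sgCtl in hypoxia by 2.17 (SE 0.59, adjusted p = 0.0099, edgeR), with 33 to 86 counts against 0 to 29.

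Of 12 glutathione genes tested, 4 passed in each line. CHAC1, which breaks glutathione down, rose by 3.38, 3.83 and 3.29 in sgCtl, sgXIST7 and sgXIST9. ABCC3, an exporter of conjugates, was at 2 counts or fewer in each sgCtl library and in normoxia exceeded these by at least 4.55-fold in sgXIST7 and 7.65-fold in sgXIST9. Of 14 thioredoxin and peroxiredoxin genes, 6, 8 and 7 passed, 5 of them higher in each line. TXNIP, an inhibitor of thioredoxin, rose in hypoxia by 3.02, 2.15 and 1.99, and glutaredoxin GLRX by 2.78, 3.58 and 2.89, beside the fall of TXNRD1. In normoxia TXNIP was higher in sgXIST7 (2.14) and sgXIST9 (1.27) than in sgCtl, and in hypoxia in sgXIST7 (1.27).

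Of the 6 genes that supply NADPH, 3, 4 and 3 were lower in hypoxia, with 1 higher in sgCtl and a median log2 fold change of −0.45, −0.53 and −0.32. TKT, of the pentose phosphate pathway, fell with −1.29, −1.40 and −1.31. Of 9 detoxification genes 6, 5 and 4 passed, in both directions. AKR1C3, an aldo-keto reductase, was at 8 to 16 counts in sgCtl in normoxia and at 2 or fewer in hypoxia, at least 3.56-fold lower, while in sgXIST7 it rose by 2.92 (SE 0.32, adjusted p = 8.0e-07, edgeR). The sgXIST7 and sgXIST9 lines in hypoxia exceeded sgCtl by at least 12.5-fold and 19.4-fold. AKR1C3 has near-identical relatives that could share its reads. Of 8 heme and iron genes 4, 4 and 3 passed. The porphyrin transporter gene ABCB6 rose by 2.18, 2.73 and 1.997 and FTL, the ferritin light chain, which has many pseudogene copies and is uncertain for that reason, by 1.04, 1.68 and 1.10, beside the rise of HMOX1. BLVRB, a biliverdin reductase, was higher than in sgCtl in hypoxia by 1.83 in sgXIST7 and 1.55 in sgXIST9. In the KD lines against sgCtl, 8 and 14 of the 62 passed in normoxia and 16 and 12 in hypoxia, shares of 12.9%, 22.6%, 25.8% and 19.4% beside the 13.5%, 13.1%, 27.6% and 17.9% of all genes. With a replicate block, in the comparisons where the numbers paired the libraries, 2 regulators, 3 NADPH genes and 1 detoxification gene passed in place of 1, 1 and 0 in sgXIST7 against sgCtl in normoxia, and 1 NADPH gene in place of 0 in sgXIST9 against sgCtl in hypoxia. Each gene of these lists that is said to rise, to fall or to be higher or lower had an adjusted p under 0.01 (edgeR).

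For the 3 members with the widest range of group means, the tested genes whose log2 CPM was most like theirs over the 18 libraries were looked up by Pearson's r. They were PPP1R15A (0.98), LMAN2L (0.98) and TMEM127 (0.97) for HMOX1, LHX6 (0.97), CAPN7 (0.97) and ZNF215 (0.96) for GCLC, and NCDN (0.93), STX3 (0.92) and NAT9 (0.92) for OSGIN1. None of the 3 had another member among its 3 most alike genes. Only 9 of the 14938 genes tested are members, so this says little about how alike the members were. Among the members, NFE2L2 and HMOX1 had an r of 0.88, GCLC and TXNRD1 of −0.87, and GCLC and GCLM, the subunits of a single enzyme, of 0.04. These values describe 18 libraries that share 6 groups, and the points are not independent.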

How the data were processed

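Per the study's methods, the authors trimmed paired-end reads of ribosomal RNA depleted, stranded libraries with Trimmomatic, checked them with FastQC, mapped them with HISAT2 on hg38, and took gene counts with featureCounts. Versions and the strand setting of the counting are not given in the sources used here, so reads of a gene and an antisense partner may not have been told apart. The deposited values are raw counts, with the exon length of each gene in the same table, from which RPKM was computed. A record broken over 2 lines, with 0 counts, was left out.

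The members and lists were chosen with earlier results of these data known. Counts were fitted in a single model of the 6 groups by edgeR 4.0.16 (glmQLFit, glmQLFTest; R 4.3.3) after TMM normalization and filterByExpr (minimum count 10), with Benjamini-Hochberg adjustment over 14938 genes. Intervals are 95% intervals of the fit. A group with 3 counts or fewer in each library was set to 3 counts per library, and folds against it are given as at least the value so obtained. The other groups entered as their means, so counting error and spread in these are not covered. The scripts were tested on simulated data. Alternatives were DESeq2 1.42.0, other scaling and filters, an adjusted p of 0.05, only the groups compared in the fit, a replicate block and each library left out. All 9 members were named, and from each other list up to 3 genes with the largest change among those called past the size limit. For the 3 members with the widest range, the 3 most alike genes were named. Deviations from the group means correlated above 0.1 for each same-numbered pair in 2 comparisons, sgXIST7 against sgCtl in normoxia (0.22, 0.49 and 0.27) and sgXIST9 against sgCtl in hypoxia (0.23, 0.55 and 0.59), and the numbers were taken to pair the libraries there.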

Additional observations from a re-analysis of the deposited data

Results flagged for a closer look

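The response of AKR1C3, an aldo-keto reductase of the detoxification list, to hypoxia differed between the KD lines and sgCtl by the interaction contrast. The fitted difference in log2 fold change was 6.31 for sgXIST7 minus sgCtl (SE 0.58, adjusted p = 1.9e-05, edgeR) and 4.13 for sgXIST9 minus sgCtl (SE 0.57, adjusted p = 7.3e-04, edgeR). Over the alternatives it ranged from 5.95 to 6.99 (adjusted p up to 6.1e-04) and from 3.66 to 4.81 (adjusted p up to 0.0050). AKR1C3 had 0 to 2 counts in the sgCtl libraries in hypoxia, so the fitted values depend on the prior count. With 3 counts per library in their place, the responses differed by at least 27.5-fold and 5.93-fold. Mean levels were 0.714, 0.324 and 2.33 CPM in normoxia and 0.0539, 2.50 and 3.89 CPM in hypoxia in sgCtl, sgXIST7 and sgXIST9.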

How the results depend on the processing

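No result changed direction past the threshold. Of 1755 log2 fold changes of members, either recomputed or read at an adjusted p under 0.05, 1659 kept the call of the main fit. In what follows, counts are of the 9 members past an adjusted p of 0.01 at any size, or, where said, also past the size limit. With only the groups compared in the fit, 3 in place of 1 passed in sgXIST7 against sgCtl in normoxia, 1 in place of 5 in hypoxia, 1 in place of 4 in sgXIST9 in hypoxia (0 in place of 2 past the size limit), and 2 in place of 0 in normoxia and 0 in place of 2 in hypoxia between the KD lines. At an adjusted p of 0.05 they were 2 and 8 in sgXIST7 against sgCtl in normoxia and hypoxia (2 past the size limit in hypoxia), 4 between the KD lines in hypoxia (1 past the limit), and 3 and 1 for the difference in response of sgXIST7 and sgXIST9 from sgCtl, all past the limit. DESeq2 gave 2 past the limit in sgXIST7 in hypoxia, as did upper-quartile scaling, 4 between the KD lines in hypoxia (1 past the limit), and 2 and 1 for the differences in response. For hypoxia in sgCtl, sgXIST7 and sgXIST9, DESeq2 with all libraries gave 7, 4 and 5 in place of 6, 4 and 4. Without replicate 3 in the hypoxia groups, edgeR gave 7, 5 and 5 for these. In that setting 2 passed the limit in sgXIST7 in hypoxia, and 4 differed between the KD lines in hypoxia (1 past the limit). The differences in response were called there for 4 members in sgXIST7 (3 past the limit) and 2 in sgXIST9. The replicate block gave 1 member, GCLC, for the difference in response of sgXIST7 from sgCtl, and changed no other count of members. Outside the 2 comparisons named in the methods the numbers were not taken to pair the libraries. Replicate 3 still correlated at 0.42 in sgXIST7 against sgCtl in hypoxia and at 0.54 between the KD lines in hypoxia. For hypoxia against normoxia in sgCtl the values were 0.124, 0.09999 and 0.109 for replicates 1, 2 and 3, beside the cut of 0.1.

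Leaving out each library in turn gave 5 to 6, 4 to 4 and 4 to 4 members for hypoxia in sgCtl, sgXIST7 and sgXIST9 (4 to 4, 3 to 3 and 2 to 3 past the limit). Against sgCtl it gave 1 to 1 and 1 to 2 in normoxia (0 to 0 and 1 to 2) and 2 to 5 and 4 to 4 in hypoxia (1 to 2 and 1 to 3) for sgXIST7 and sgXIST9. Between the KD lines it gave 0 to 0 in normoxia and 0 to 4 in hypoxia (0 to 0 and 0 to 2). For the differences in response it gave 0 to 4, 0 to 2 and 0 to 1, at any size and past the limit alike.

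Over all genes, calls past the limit for the difference in response of sgXIST7 from sgCtl went from 227 to 549 with DESeq2, 371 with the block, 79 with only the groups compared and 1288 without replicate 3 in the hypoxia groups. For sgXIST9 they went from 151 to 371, 90 and 822 with DESeq2, only the groups compared and without replicate 3. With only the groups compared, 1113 and 641 genes were called against sgCtl in hypoxia in place of 2093 and 1423. Other scaling shifted the log2 fold changes of the listed genes by at most 0.085 in the median. The cause of these shifts was not tested. With 3 libraries a group, a difference between lines that did not pass was not shown to be absent. Sizes within its interval remain possible.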
